A study of Mus musculus with 12 samples.

Results

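The comparison described here asks for which genes the difference between embryos injected with an antisense oligonucleotide (ASO) against LINE1 and embryos injected with a control ASO depended on the stage at which the embryos were collected. For each gene the difference between LINE1 ASO and control libraries was taken at the 4-cell stage (4C) and at the early 2-cell stage (early 2C), and the early 2C difference was subtracted from the 4C difference. This double difference, the stage by ASO interaction, uses all 12 of the 12 libraries of the series. It rests on 3 libraries in each of 4 groups, and its 2 stage differences share no library. All embryos were C57BL/6J, from superovulated females of 5 to 8 weeks and males of 2 to 6 months, and all were injected as zygotes with 1 of the ASOs at 0.75 mM and cultured in KSOM medium. The groups were early 2C with the control ASO that the labels call RC, early 2C with LINE1 ASO, 4C with RC and 4C with LINE1 ASO. Early 2C embryos were taken about 33 h after hCG and about 9 h after injection, and 4C embryos after 2 days of culture. Stage and time since injection therefore cannot be told apart, and a dependence on stage below can be either. The labels do not say what RC stands for, and no uninjected embryos entered the comparison.

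LINE1 is the most abundant family of autonomous retrotransposons in the mouse genome, and its RNA is abundant in the early embryo. The 2-cell stage is when the mouse embryo begins major transcription from its own genome: genes such as Dux and the Zscan4 cluster are transcribed there for a short time and are then silenced, while mRNAs that the oocyte deposited are degraded. By the 4-cell stage the embryo depends on its own transcripts for ribosomes, cell division and the regulators of the first lineages. An effect that differs between these stages can concern a gene that is expressed at both, or one whose RNA is being cleared or newly made between them.

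The libraries held 19160716 to 51854939 counts, over the same 23284 genes in both tables, of which 15760 were tested and 13156 were detected at both stages (averaging 10 counts or more per library in a group of each stage). Nothing in the labels says that replicates came from separate animals or separate pools, so each p-value reflects only how far these libraries varied, and that variation may be technical. Replicates correlated at 0.936 to 0.979 in log2 CPM across genes (CPM are counts scaled to a common library size), and the biological coefficient of variation, the relative spread between replicates, was 0.229 at early 2C and 0.412 at 4C. The library labelled 4C LINE1 ASO replicate 3 stood apart. Of the 1714 genes called different at 4C, it was the LINE1 ASO library nearest to the RC mean for 1280, against 254 for replicate 1 and 180 for replicate 2. Counts of called genes are therefore given with and without it, for all genes and for the gene lists. The library was picked out by its closeness to RC in these same genes. Leaving it out tends to widen their 4C differences, so calls gained without it are no independent support. In the fit without it 4.69% of all genes passed the interaction higher and 3.24% lower. The oocyte and embryo markers Zp3, Oosp1, Pou5f1 and Dppa3 were present in every library. LINE1 RNA itself was not analysed here, so the values hold no check of its knockdown.

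After multiple testing 176 genes had a LINE1 ASO difference that depended on the stage (edgeR's quasi-likelihood test, Benjamini-Hochberg adjusted p under 0.05), 1.12% of the genes tested. Of the called genes, 102 had a higher difference at 4C than at early 2C (0.647%) and 74 a lower one (0.47%). Where a gene is called higher or lower at 4C than at early 2C, this refers to the LINE1 ASO minus RC difference and not to the level. An unadjusted p under 0.05 was reached by 2757 genes, 17.5%. In the same fit the ASO difference itself was called for 1714 genes at 4C (10.9%: 1099 higher in LINE1 ASO, 6.97%, and 615 lower, 3.9%) and for 2 genes at early 2C (0.0127%: 1 higher and 1 lower, 0.00635% each). That fit took 1 spread per gene from both stages, although replicates varied more at 4C. With each stage fitted alone, 645 genes were called at 4C (274 higher and 371 lower) and 50 at early 2C (37 higher and 13 lower). A stage fitted alone also had its own filter and scaling, so the spread is not the only thing that changed. The counts per stage and the 4C balance of directions thus depend on these choices together. The interquartile range of the log2 differences of all genes was 0.41 at early 2C and 0.97 at 4C. DESeq2 called 920 genes in the interaction (6.2%: 476 higher, 3.21%, and 444 lower, 2.99%), 57 at early 2C (0.579%: 24 higher, 0.244%, and 33 lower, 0.335%) and 2732 at 4C (16.7%: 1555 higher, 9.49%, and 1177 lower, 7.19%).

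**Figure D1:**
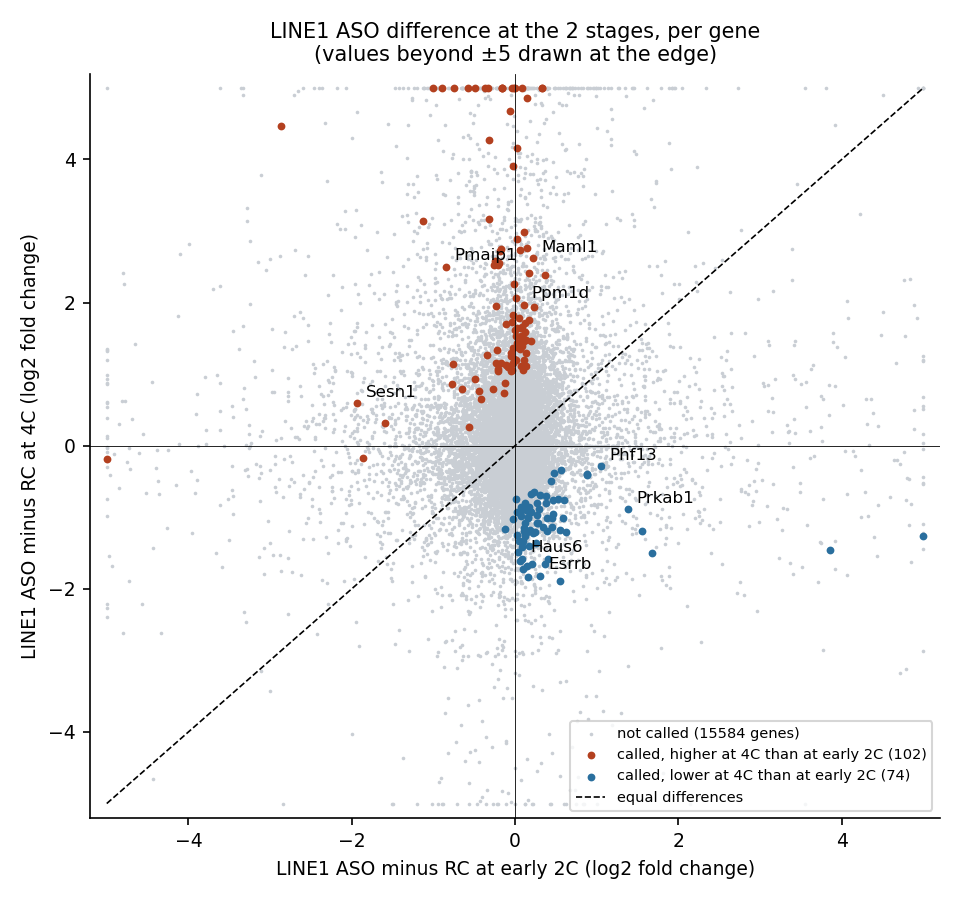
Each point is a gene, with its LINE1 ASO minus RC difference at early 2C on the x axis and at 4C on the y axis, both as fitted log2 fold changes from 3 libraries per group, and values beyond 5 in size drawn at the edge. The 176 called genes lie mostly along the vertical axis: 161 of them have the larger difference at 4C, and Prkab1, Phf13 and Sesn1 are among the 15 with the larger difference at early 2C.

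The 2 stage differences were nearly unrelated across the 15760 genes, with a Pearson correlation of 0.02 and a Spearman correlation of 0.06, given as a description across genes that are not independent replicates. Of the 176 called genes, 161 had the larger absolute difference at 4C and 15 at early 2C. The stage differences had opposite signs in 130, the same sign and a larger size at 4C in 44, and the same sign and a larger size at early 2C in 2. These counts were not taken over all genes, and choosing genes by the double difference favours opposite signs. Differences of all genes also spread more widely at 4C. The early 2C difference passed its own test for only 2 of the 176, so most early 2C signs are uncertain. The 4C difference alone also passed its own test for 163 of the 176. Of the 2 genes called at early 2C, both passed the interaction: Prkab1 was called at both stages and Apobec3 at early 2C only. For 12 genes neither stage difference passed alone and only the double difference did. The 3 LINE1 ASO and 3 RC libraries did not overlap at 4C in 169 of the called genes and at early 2C in 62, against 25.4% and 13.4% of all genes tested. The called genes were chosen by a test on these same libraries, so this separation largely follows from the choice and is no further support.

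Only Prkab1, which encodes the beta-1 regulatory subunit of the energy sensor AMP-activated protein kinase, was called at both stages, and in opposite directions. At early 2C its level was 64.7, 89 and 56.7 CPM in the 3 RC libraries and 193, 199 and 159 CPM in the 3 LINE1 ASO libraries. At 4C it was 165, 137 and 160.0 CPM with RC and 81.5, 76.5 and 91.8 CPM with LINE1 ASO. The groups did not overlap at either stage: the LINE1 ASO libraries were the high ones at early 2C and the low ones at 4C. Prkab1 rose at early 2C (log2 fold change 1.39 ± 0.18, adjusted p = 0.00774) and fell at 4C (-0.89 ± 0.17 (SE), adjusted p = 0.00648), and the double difference was -2.27 ± 0.25 (SE), adjusted p = 0.0011 in edgeR's test. It was called in each of the 12 fits without 1 library and in each of the 12 other alternatives. The RC embryos had more Prkab1 RNA at 4C than at early 2C, and the LINE1 ASO embryos had less. Of the 42 genes tested in a list of AMPK and mTORC1 nutrient-sensing genes, Prkab1 and Sesn1 passed the interaction, against 1.12% of all genes. The median double difference was -0.02 against 0.19 for all genes.

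Apobec3, a cytidine deaminase that restricts retroviruses and retroelements, was the other gene called at early 2C. It measured 0.887, 0.403 and 0.953 CPM in early 2C RC and was at 0 counts in all 3 early 2C LINE1 ASO libraries. At 4C it measured 21.6, 17.4 and 23.6 CPM with RC and 14.9, 16.9 and 23.1 CPM with LINE1 ASO, where the groups overlapped. With the group at 0 counts set to a floor of 3 in total, the early 2C level was at least 24.5-fold higher with RC than with LINE1 ASO. This bound and others of its kind cover counting error only. The double difference passed with an adjusted p of 0.00846 in edgeR's test and in all 12 fits without 1 library. The early 2C level was low in both groups. Of 36 tested genes in a list of retroelement restriction and nucleic acid sensing genes, Apobec3 and Tex19.1 passed, both higher at 4C than at early 2C. Of all genes 0.647% passed in that direction. Tex19.1, which restrains retrotransposons in the mouse germ line, measured 85.8, 95.6 and 97.7 CPM and 77.3, 97.3 and 97.8 CPM at early 2C with RC and LINE1 ASO, and 59, 54.5 and 51.1 CPM and 119, 136 and 89 CPM at 4C. The early 2C values overlapped and the 4C values did not, and the double difference was 1.10 ± 0.24 (SE), adjusted p = 0.0454 in edgeR's test. It was called in 1 of the 12 fits without 1 library.

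The other genes with the larger difference at early 2C were named after their values had been seen. Phf13, a chromatin protein that binds methylated histone H3, measured 159, 190.5 and 153 CPM in early 2C RC and 315, 402 and 322 CPM in early 2C LINE1 ASO, without overlap. The 4C values were 155, 117 and 149 CPM and 139.9, 97.3 and 108 CPM, and the groups overlapped. Its early 2C difference of 1.05 missed the threshold alone (adjusted p = 0.0784, edgeR), and its double difference passed (-1.33 ± 0.24 (SE), adjusted p = 0.0269). Ccdc117 was likewise higher with LINE1 ASO in every early 2C library and lower in every 4C library, with means of 278 ± 48.7, 514 ± 86.7, 478 ± 51.6 and 360.4 ± 9.57 CPM (SD, n = 3) in early 2C RC, early 2C LINE1 ASO, 4C RC and 4C LINE1 ASO. Its double difference was -1.29, and its early 2C difference did not pass alone either. Atl3, which encodes a GTPase that shapes the endoplasmic reticulum, and the kinase gene Stk35 also had the higher early 2C mean with LINE1 ASO, with double differences of -1.27 and -0.89. Zfp622 had early 2C means of 0.5 CPM with LINE1 ASO and 1.79 CPM with RC, without overlap, and overlapped at 4C, with means of 300.4 and 339 CPM. Ppp2cb, a catalytic subunit of protein phosphatase 2A, was likewise at 0.225 against 0.721 CPM at early 2C and 151 against 121 CPM at 4C.

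**Figure D2:**
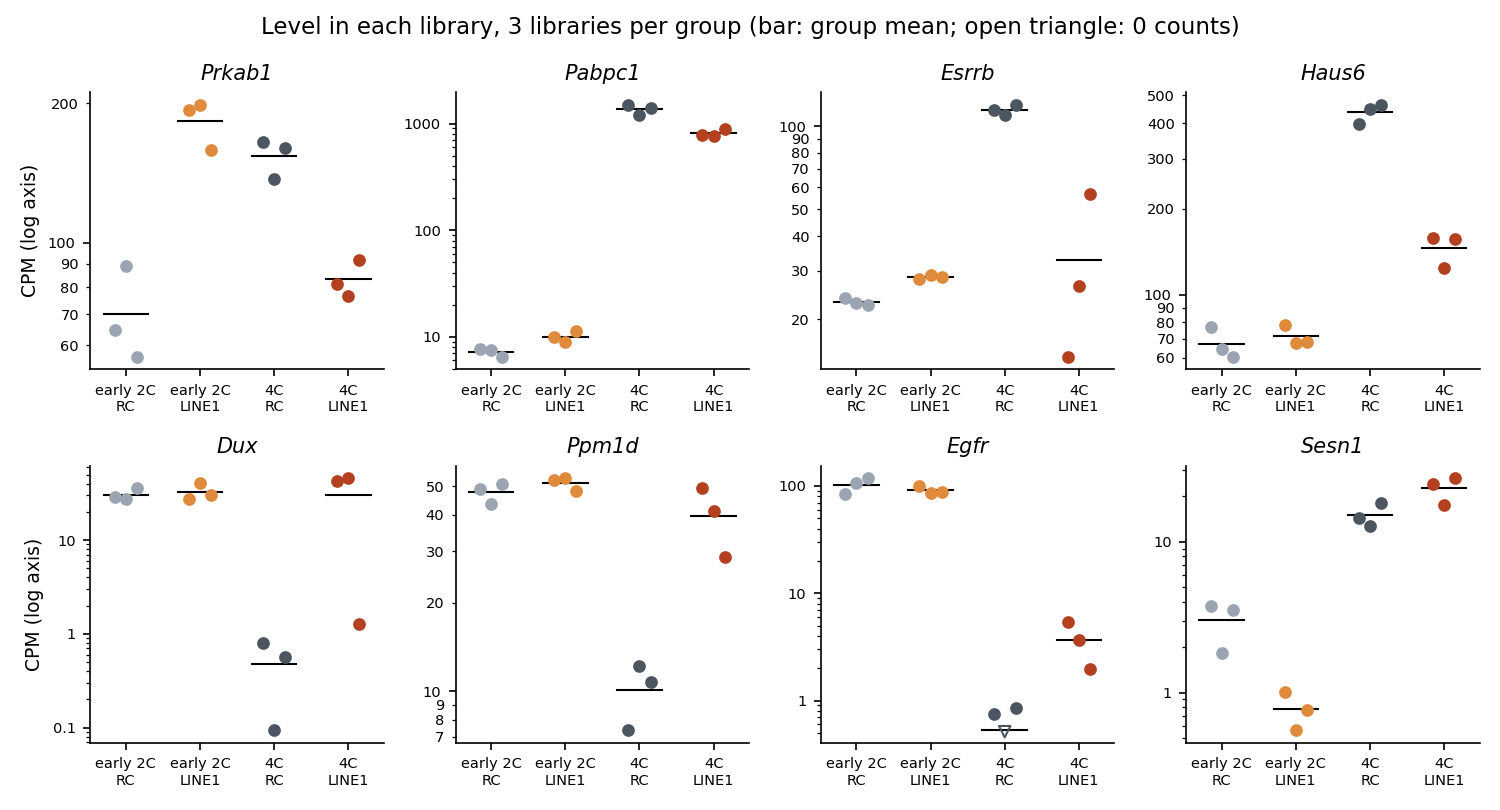
Level of 8 called genes in each of the 12 libraries, in CPM on a log axis, with 1 point per library, a bar at the mean of the 3 libraries of each group and an open triangle for a library with 0 counts. Prkab1 is high in early 2C LINE1 ASO and low in 4C LINE1 ASO, and in Dux 1 of the 3 4C LINE1 ASO libraries, replicate 3, lies near the RC libraries.

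Among 35 tested genes of a list of 2-cell-stage transcripts, Dux and Zscan4f passed the interaction, both higher at 4C than at early 2C. None was lower. Of all genes tested 0.647% passed higher and 0.47% lower. The list's median difference was -0.36 at early 2C and 1.77 at 4C, and its median double difference was 2.13, against 0.19 for all genes. Without 4C LINE1 ASO replicate 2 the 4C median was 0.75 and the median double difference 1.27, and in 9 of the 12 fits without 1 library no gene of the list passed higher. Dux encodes the homeobox factor that activates the 2-cell programme. It measured 29.1, 27.1 and 35.6 CPM in early 2C RC and 27.2, 40.4 and 29.9 CPM in early 2C LINE1 ASO. At 4C the level was 0.792, 0.0941 and 0.563 CPM with RC and 43, 45.8 and 1.27 CPM with LINE1 ASO. The early 2C groups overlapped. At 4C all 3 LINE1 ASO libraries were above the RC libraries, replicates 1 and 2 above every early 2C library and replicate 3 just above the highest 4C RC library. The double difference was 5.85 ± 1.18 (SE), adjusted p = 0.0386 in edgeR's test, and the adjusted p was 2.43e-05 without 4C LINE1 ASO replicate 3. It was called in 2 of the 12 fits without 1 library, with an adjusted p of up to 0.101. Reads of the Dux array and of the Zscan4 cluster can be split between near-identical copies, so their values are uncertain.

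Zscan4f, a zinc finger gene of the Zscan4 cluster, measured 2.11, 1.76 and 1.18 CPM in early 2C RC and 0.561, 1.01 and 0.946 CPM in early 2C LINE1 ASO. At 4C it measured 0, 0.141 and 0 CPM with RC, 3 counts in all, and 6.5, 9.48 and 0.398 CPM with LINE1 ASO. The LINE1 ASO libraries were the low ones at early 2C and the high ones at 4C, without overlap at either stage. The early 2C difference of -1.01 ± 0.92 (SE) did not pass alone. The 4C ratio of LINE1 ASO to RC was 125 (95% counting interval 42.5 to 609), and the interaction had an adjusted p of 0.0386 in edgeR's test. Zscan4c and Zscan4d did not pass, with double differences of 5.98 ± 1.67 (SE), adjusted p = 0.0883, and 3.68 ± 1.07 (SE), adjusted p = 0.0967. Without 4C LINE1 ASO replicate 3 they had adjusted p-values of 0.00686 and 0.00823, and up to 0.208 and 0.302 without another single library (edgeR). In the fit without replicate 3, 16 genes of the list passed, 15 higher and 1 lower, against 4.69% and 3.24% of all genes. Zfp352, another 2-cell gene, had means of 15.9 ± 2.85, 15.3 ± 0.643, 14.6 ± 12.5 and 25 ± 23.5 CPM (SD, n = 3) in the order early 2C RC, early 2C LINE1 ASO, 4C RC and 4C LINE1 ASO, and a double difference of 0.84 ± 0.85 (SE), adjusted p = 0.65. Nacad, which had the largest fitted double difference among genes well detected at both stages, measured 11.7, 11.8 and 14.9 CPM and 8.85, 8.53 and 12.4 CPM at early 2C with RC and LINE1 ASO, and 0.0466, 0 and 0 CPM and 18.5, 9.92 and 0.76 CPM at 4C. The early 2C groups overlapped, a single 4C RC library held 1 count, and of the 4C LINE1 ASO libraries replicate 3 was by far the lowest. The 4C ratio was 654 (95% counting interval 117 to 25900.0), and the interaction was called in all 12 fits without 1 library.

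The p53 response is a set of genes that the transcription factor p53 switches on after DNA damage and other stress, and that arrest the cell cycle, trigger cell death or feed back on p53. The list used here is broader and also holds Trp53, the p53 gene itself. Membership in this list therefore does not show that p53 switches a gene on. Of 42 tested genes of this list, 6 passed the interaction and all 6 were higher at 4C than at early 2C: Ppm1d, Psrc1, Sesn1, Ccng2, Trp53 and Pmaip1. Of all genes tested 0.647% passed in that direction. At 4C alone 16 were called higher in LINE1 ASO, against 6.97% of all genes, and none lower, and at early 2C none was called. The median difference of the list was -0.09 at early 2C and 0.81 at 4C. Of the 42, 39 had a double difference above 0, against 9352 of all 15760 genes tested. The median double difference was 0.86 against 0.19 for all genes. The median stayed between 0.67 and 1.05 without any 1 library and between 0.68 and 1.01 under the other scalings. The count of 6 was 3 with DESeq2's size factors, 3 with TMM referred to a 4C library and 8 with library totals. It fell to 0 or 1 without any 1 early 2C library, 4C RC replicate 1, or 4C LINE1 ASO replicate 1 or 2. It was 3 without 4C RC replicate 2 and 7 without 4C RC replicate 3. Without 4C LINE1 ASO replicate 3 it rose to 16, 15 higher and 1 lower. In that last fit 4.69% of all genes passed higher and 3.24% lower. The list was chosen with earlier results of these data known.

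The promoters of Ppm1d, Psrc1 and Sesn1, the 3 members with the smallest p, are shown because the p53 response is the list with the most called genes. The sequences are the 250 bases before the annotated start, 5′ to 3′ on the gene's strand, from RefSeq on GRCm38.p6, with matches to 3 motifs in capitals: the CCAAT box (CCAAT, or ATTGG on the other strand), the cyclic AMP response element TGACGTCA, and the p53 half-site.
Ppm1d (chr11:85311004-85311253, plus strand): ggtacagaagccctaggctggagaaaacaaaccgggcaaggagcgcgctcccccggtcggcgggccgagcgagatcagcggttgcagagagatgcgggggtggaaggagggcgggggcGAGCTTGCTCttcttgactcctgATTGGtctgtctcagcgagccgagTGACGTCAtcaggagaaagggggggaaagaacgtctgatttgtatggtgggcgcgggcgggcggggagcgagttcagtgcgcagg
Psrc1 (chr3:108383554-108383803, plus strand): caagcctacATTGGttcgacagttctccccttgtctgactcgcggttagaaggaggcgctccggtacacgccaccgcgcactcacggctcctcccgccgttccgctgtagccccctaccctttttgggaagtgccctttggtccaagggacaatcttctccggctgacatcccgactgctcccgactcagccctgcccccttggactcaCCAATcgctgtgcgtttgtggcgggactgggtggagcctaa
Sesn1 (chr10:41810324-41810573, plus strand): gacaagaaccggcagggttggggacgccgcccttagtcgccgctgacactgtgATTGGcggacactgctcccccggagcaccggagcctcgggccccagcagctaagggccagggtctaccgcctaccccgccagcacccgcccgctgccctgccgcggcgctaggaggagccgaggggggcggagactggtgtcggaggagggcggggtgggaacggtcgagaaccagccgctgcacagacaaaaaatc
Ppm1d held 1 match to each motif, Psrc1 2 CCAAT boxes and Sesn1 1 CCAAT box, and none of the matches overlapped another. Searched on both strands over the same length, 34.5% of 27025 promoters held a CCAAT box, 1.62% a cyclic AMP response element and 7.18% a p53 half-site. A match is a description, not a site. Of the other called members, Trp53 held 1 CCAAT box and 1 p53 half-site and Ccng2 held none of the motifs in this window.

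Ppm1d encodes the phosphatase Wip1, which p53 induces and which dampens p53. It measured 48.9, 43.6 and 51 CPM in early 2C RC and 52.7, 53.3 and 48.2 CPM in early 2C LINE1 ASO. The 4C values were 7.36, 12.2 and 10.8 CPM with RC and 49.2, 41.1 and 28.7 CPM with LINE1 ASO. The early 2C groups overlapped, the 4C RC libraries were far below them, and the 4C LINE1 ASO libraries ranged from the early 2C level in replicate 1 down to replicate 3, still above all 4C RC libraries. The double difference was 1.87 ± 0.32 (SE), adjusted p = 0.0201 in edgeR's test, with an adjusted p of up to 0.0879 without 1 library. Psrc1, a microtubule-binding protein, measured 108, 118 and 109 CPM and 121, 101 and 106 CPM at early 2C with RC and LINE1 ASO, and 10.5, 11.7 and 12.6 CPM and 53.1, 38.1 and 24.3 CPM at 4C. The 4C LINE1 ASO libraries lay above 4C RC and below early 2C, and the double difference was 1.76 ± 0.31 (SE), adjusted p = 0.024.

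Sesn1 encodes a sestrin, a stress protein that restrains mTORC1. It was the only called member of the p53 list with the larger difference at early 2C. It measured 3.76, 1.83 and 3.54 CPM in early 2C RC and 1.01, 0.563 and 0.771 CPM in early 2C LINE1 ASO. At 4C the level was 14.4, 12.7 and 17.9 CPM with RC and 23.9, 17.6 and 26.3 CPM with LINE1 ASO. The LINE1 ASO libraries were the low ones at early 2C, without overlap, and overlapped the RC libraries at 4C. Neither stage difference passed alone (-1.93 ± 0.37 (SE), adjusted p = 0.143 at early 2C and 0.59 ± 0.34 (SE), adjusted p = 0.279 at 4C, edgeR), and the double difference did (2.52 ± 0.50 (SE), adjusted p = 0.0381). Trp53, the p53 gene itself, measured 30.8, 33.8 and 39.8 CPM and 37.6, 40.7 and 31.8 CPM at early 2C with RC and LINE1 ASO, and 16.9, 12.9 and 23.9 CPM and 60.5, 52.4 and 41.7 CPM at 4C, where the groups did not overlap. Its double difference of 1.45 had an adjusted p of 0.0498, close to the threshold. Trp53 overlaps Wrap53 on the other strand, whose means in the same order of groups were 0.983, 0.921, 12.7 and 20.1 CPM. How the counting treated strand is not known here, so reads of this pair may be shared.

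Pmaip1, which encodes the cell death protein Noxa, measured 13, 7.48 and 18.4 CPM in 4C RC and 93.8, 106 and 20.6 CPM in 4C LINE1 ASO, where replicate 3 was the low one. At early 2C it was at 2.28, 1.14 and 1.22 CPM with RC and 0.842, 1.25 and 0.49 CPM with LINE1 ASO, and the groups overlapped. Its double difference was 3.35 ± 0.77 (SE), adjusted p = 0.0498. Ccng2, a cyclin that slows the cycle, had means of 20.6 ± 5.29, 21.2 ± 3.6, 3.15 ± 0.146 and 10.9 ± 1.54 CPM (SD, n = 3) in the order used above, and a double difference of 1.75. The best-known target, Cdkn1a, did not pass. It measured 117, 92.1 and 70.4 CPM in 4C RC and 288, 203 and 64.5 CPM in 4C LINE1 ASO, where replicate 3 was below all RC libraries, and its double difference was 0.86 ± 0.67 (SE), adjusted p = 0.537. Mdm2, the ubiquitin ligase that degrades p53, and the antiproliferative gene Btg2 missed the threshold, with double differences of 1.03 ± 0.27 (SE), adjusted p = 0.0729, and 3.48 ± 0.86 (SE), adjusted p = 0.0615.

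**Figure D3:**
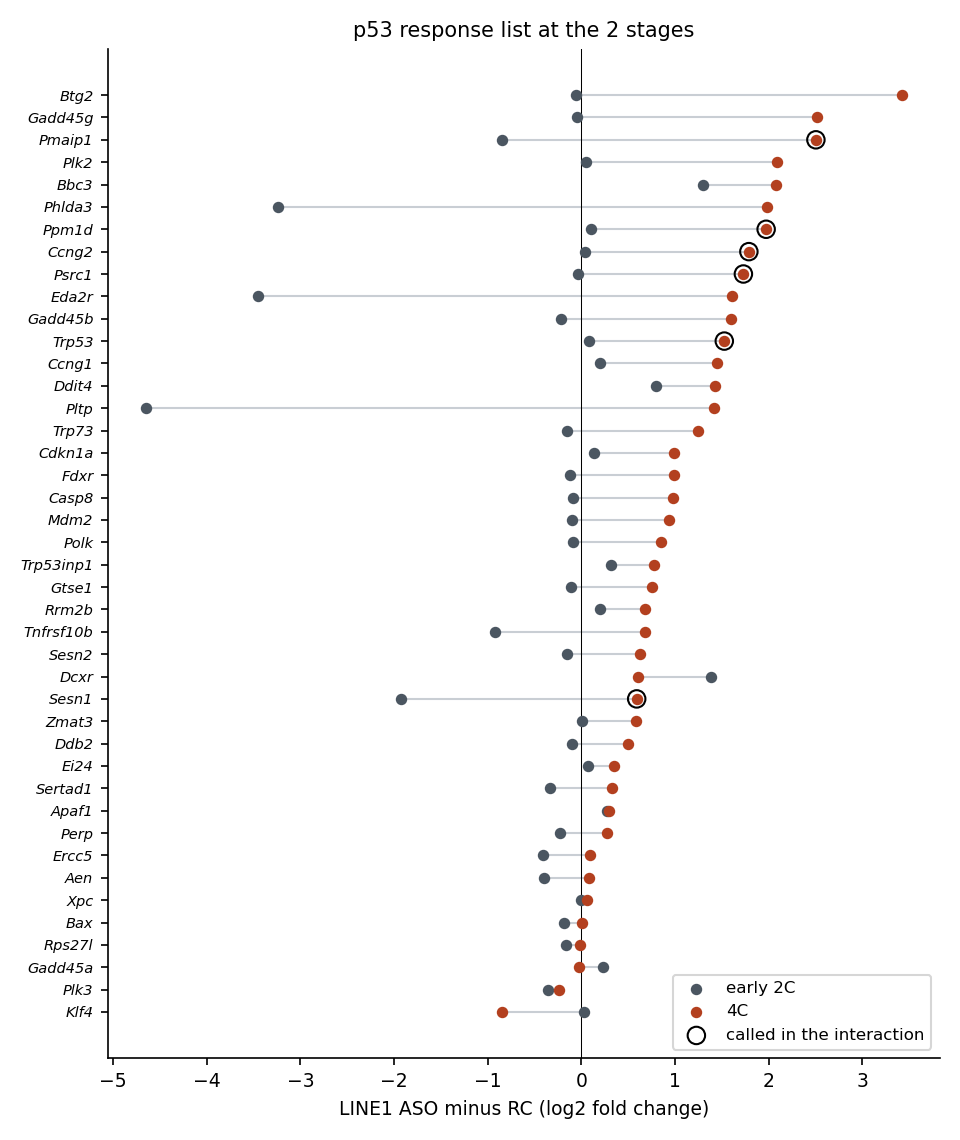
Fitted log2 difference, LINE1 ASO minus RC, of the 42 tested genes of the p53 list at early 2C (grey) and at 4C (red), with 1 line per gene and a ring around the 6 called in the interaction. The 4C points lie mostly to the right of the early 2C points: 39 of 42 genes have a double difference above 0. Of all 15760 genes tested 9352 do. The far-left early 2C points of Phlda3, Eda2r and Pltp rest on few counts.

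Several genes with the largest positive double differences had a high level in both early 2C groups and a low level at 4C that was higher with LINE1 ASO. In bulk samples of this kind fewer cells of a type and less RNA per cell cannot be told apart. The development from early 2C to 4C in RC embryos uses the same RC libraries as the interaction, so the levels are given side by side and no relation between the 2 is drawn. Egfr, the epidermal growth factor receptor, measured 83.3, 107 and 118 CPM in early 2C RC and 99.5, 86 and 88.4 CPM in early 2C LINE1 ASO, with overlap. At 4C it measured 0.745, 0 and 0.845 CPM with RC and 5.36, 3.63 and 1.99 CPM with LINE1 ASO, without overlap. Both 4C groups were thus far below early 2C, with the LINE1 ASO libraries the higher ones, and the double difference was 2.92 ± 0.66 (SE), adjusted p = 0.0468 in edgeR's test. Lypd3 had means of 78.1 ± 15 and 66 ± 5.62 CPM (SD, n = 3) at early 2C with RC and LINE1 ASO, and 0.569 ± 0.132 and 3.4 ± 1.09 CPM at 4C. Its double difference was 2.82 ± 0.38 (SE), adjusted p = 0.00476, and it was called in all 12 fits without 1 library. Mat1a, a methionine adenosyltransferase, and Nlgn3, a synaptic adhesion protein, had the same order of levels, with 4C means of 0.313 against 2.13 CPM and 0.243 against 2.25 CPM. Their double differences were 2.90 and 3.49. Sh3tc2 reached 4.14, from 4C values of 0, 0.329 and 0.282 CPM with RC and 2.95, 6.73 and 1.59 CPM with LINE1 ASO.

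Zfp57, a zinc finger factor that protects imprinted DNA methylation, had the highest early 2C level among the named genes of this kind. It measured 4312, 4996 and 4734 CPM in early 2C RC and 4129, 4124 and 4241 CPM in early 2C LINE1 ASO. The 4C values were 68.5, 77.7 and 98.7 CPM with RC and 207, 187 and 149.9 CPM with LINE1 ASO, without overlap. The double difference was 1.32 ± 0.21 (SE), adjusted p = 0.0112 in edgeR's test. Cbx1, which encodes the heterochromatin protein HP1 beta, went from means of 141 and 123 CPM at early 2C to 14.5 CPM with RC and 30.4 CPM with LINE1 ASO at 4C, and its double difference was 1.27. Zfp57 and Cbx1 were the 2 called among 33 tested genes of a list compiled for repressors of Dux and MERVL, whose median double difference was -0.29. Membership in this list does not show that Zfp57 represses either. Of all genes 1.12% were called. Ldhb, a lactate dehydrogenase subunit, had 4C means of 48.6 CPM with RC and 88.8 CPM with LINE1 ASO, and a double difference of 0.99. Selp and Rab38, named after their values had been seen, had the smallest p-values of this kind. Selp measured 0.0466, 0.0471 and 0.0805 CPM in 4C RC, only 4 counts in all, and 1.96, 1.28 and 1.66 CPM in 4C LINE1 ASO. Rab38 measured 0.838, 0.894 and 1.05 CPM and 6.17, 8.88 and 4.02 CPM. Both were called in all 12 fits without 1 library.

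Genes at 0 counts in a group have a bound instead of a fold. Asb15 was the 1 gene named as well detected at a single stage, with 8.96, 6.81 and 11.4 CPM in early 2C RC and 8.12, 6.44 and 6.97 CPM in early 2C LINE1 ASO. It was at 0 counts in all 4C RC libraries and at 0.406, 0.471 and 0.0723 CPM in 4C LINE1 ASO, at least 7.2-fold higher. Of the called genes, 7 had a group at 0 counts, and all 7 were called higher at 4C than at early 2C. Cbln1, a synaptic organiser, differed in its order: it was at 1.72, 1.98 and 1.61 CPM in 4C RC and 12, 8.24 and 10.3 CPM in 4C LINE1 ASO, with early 2C means of 4.51 and 3.76 CPM in between. Its double difference was 2.78 ± 0.64 (SE), adjusted p = 0.0493. Maml1, a coactivator of Notch signalling that was named after its values had been seen, was also higher in 4C LINE1 ASO (217, 231 and 108 CPM) than in the other groups, whose means were 34.9, 40.6 and 30.2 CPM. It was called in all 12 fits without 1 library.

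None of 45 tested maternal oocyte transcripts passed the interaction, and 14 had an unadjusted p under 0.05, against 17.5% of all genes. Without 4C LINE1 ASO replicate 3, 9 passed higher and 0 lower, against 4.69% and 3.24% of all genes. The list's median difference was -0.05 at early 2C and 0.34 at 4C, and the median double difference of 0.41, against 0.19 for all genes, stayed between 0.17 and 0.60 without any 1 library. Oosp1, an oocyte-secreted protein gene, came nearest, with means of 579.8 and 514 CPM at early 2C and 11.1 and 32.7 CPM at 4C, and a double difference of 1.73 ± 0.45 (SE), adjusted p = 0.0717. The summed CPM of 18 sperm markers, here scaled to library totals, moved with the groups: it was 387 to 477 in early 2C RC, 376 to 426 in early 2C LINE1 ASO, 64.7 to 81.3 in 4C RC and 97.3 to 164 in 4C LINE1 ASO. At 4C most of it was Odf2, with 4C means of 66.1 and 109.6 CPM. In all, 10 of the 18 markers were at 0 throughout 4C RC and 7 throughout 4C LINE1 ASO, while the sperm protamine gene Prm2 had 4C means of 0.329 and 0.158 CPM. The 20 cumulus cell markers summed to 30.7 to 34.2 CPM in early 2C RC, 28 to 36.7 in early 2C LINE1 ASO, 46.6 to 49.8 in 4C RC and 45.9 to 64.1 in 4C LINE1 ASO, with 4, 3, 7 and 7 of them at 0. Over the 11 cumulus markers tested, the median difference was 1.02 at 4C and the median double difference 0.89, and none was called in either. The 7 sperm markers tested had a 4C median of 0.73 and a median double difference of 0.43. Of these 1 was called higher at 4C, against 6.97% of all genes. The 15 blood markers summed to 0.438 to 4.82 CPM over all libraries, with 8 to 11 of them at 0 in a group. The part of these markers in the results, those of the 2-cell-stage and p53 lists included, was not tested.

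Genes with a negative double difference mostly stood lower in 4C LINE1 ASO than in 4C RC. Esrrb, a nuclear receptor of the pluripotency network, measured 23.9, 22.8 and 22.4 CPM in early 2C RC and 28, 28.9 and 28.5 CPM in early 2C LINE1 ASO. At 4C the level was 115, 110.1 and 119.8 CPM with RC and 14.6, 26.4 and 56.9 CPM with LINE1 ASO. The LINE1 ASO libraries were slightly the higher at early 2C, where the difference of 0.30 ± 0.33 (SE) did not pass alone. They were the lower at 4C, without overlap at either stage, and 4C replicate 3 was the nearest to RC. The double difference was -2.12 ± 0.46 (SE), adjusted p = 0.0454 in edgeR's test, and the adjusted p without that library was 0.000237. The adjusted p reached 0.108 without another single library. Tfap2c, a transcription factor of the early embryo and the trophectoderm, had means of 73.2 ± 14.6, 82 ± 1.81, 169 ± 13.2 and 83.6 ± 15.7 CPM (SD, n = 3) in the order early 2C RC, early 2C LINE1 ASO, 4C RC and 4C LINE1 ASO. Its double difference was -1.18 ± 0.24 (SE), adjusted p = 0.0399. These were the 2 called genes among 41 tested pluripotency and early lineage regulators, against 1.12% of all genes. At 4C alone 9 of the list were called lower and 1 higher, against 3.9% and 6.97% of all genes. The list's median double difference was -0.36. Without 4C LINE1 ASO replicate 3, 1 passed higher and 10 lower, against 4.69% and 3.24% of all genes. Pou5f1, which encodes Oct4, fell at 4C (from a mean of 169 to 73.3 CPM) and was at 305 and 247 CPM at early 2C. Its double difference of -0.90 ± 0.39 (SE), adjusted p = 0.247 did not pass, and without 4C LINE1 ASO replicate 3 the adjusted p was 0.0381. Without another single library the adjusted p reached 0.409 (edgeR).

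Lrp2, the endocytic receptor megalin, had the most negative double difference among genes well detected at both stages. It measured 8.66, 7.99 and 8.77 CPM and 14.8, 12.3 and 10 CPM at early 2C with RC and LINE1 ASO, and 86.3, 30.8 and 50.3 CPM and 17.7, 17.1 and 10.4 CPM at 4C. The groups did not overlap at either stage, and the 4C RC libraries differed widely among themselves. The early 2C difference of 0.55 ± 0.33 (SE) did not pass alone. The double difference was -2.43 ± 0.47 (SE), adjusted p = 0.0352. Acpp, an acid phosphatase, and Wdr72 had 4C means of 34.4 against 11 CPM and 14.1 against 4.69 CPM, and double differences of -2.01 and -1.99. Vat1 fell from a mean of 64.2 CPM with RC to 18.1 CPM with LINE1 ASO at 4C, with a double difference of -1.98. Snhg1, a host gene of small nucleolar RNAs, measured 2.2, 2.56 and 2.29 CPM and 3.39, 3.86 and 3.68 CPM at early 2C with RC and LINE1 ASO, and 66.1, 66 and 37.7 CPM and 22.1, 25.8 and 26 CPM at 4C. Its LINE1 ASO libraries were the high ones at early 2C and the low ones at 4C, without overlap, and the double difference was -1.83 ± 0.35 (SE), adjusted p = 0.0352. The early 2C difference of 0.63 ± 0.26 (SE) did not pass alone (adjusted p = 0.939, edgeR).

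Pabpc1, the main cytoplasmic poly(A)-binding protein, is scarce in the oocyte of the mouse and is made by the embryo. It measured 7.77, 7.51 and 6.52 CPM and 9.87, 8.85 and 11.4 CPM at early 2C with RC and LINE1 ASO, and 1506, 1212 and 1386 CPM and 784, 758 and 886 CPM at 4C. The LINE1 ASO libraries were above the RC libraries at early 2C and below them at 4C, without overlap at either stage. The early 2C difference of 0.47 ± 0.15 (SE) did not pass alone (adjusted p = 0.682, edgeR). The double difference was -1.23 ± 0.20 (SE), adjusted p = 0.0114, and it was called in all 12 fits without 1 library. It was the 1 called gene among 41 tested translation initiation factors, whose median was -0.18. Of all genes 1.12% were called. Haus6, a subunit of the augmin complex that nucleates spindle microtubules, was named after its values had been seen: it measured 397, 448 and 464 CPM in 4C RC and 158, 124 and 157 CPM in 4C LINE1 ASO, and 76.7, 64.2 and 60.5 CPM and 78.2, 67.3 and 68.4 CPM at early 2C. The early 2C groups overlapped, the 4C groups did not, and the double difference was -1.67 ± 0.21 (SE), adjusted p = 0.00362.

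Of 61 tested cell cycle and mitosis genes, Prc1 and Cdc25a passed the interaction, both lower at 4C than at early 2C. Of all genes 0.47% passed in that direction. Prc1 bundles the microtubules of the spindle midzone. It measured 534, 509.7 and 537 CPM and 609, 617 and 582 CPM at early 2C with RC and LINE1 ASO, and 699, 570.3 and 541 CPM and 347, 358 and 432 CPM at 4C. The LINE1 ASO libraries were above RC at early 2C and below RC at 4C, without overlap, and the double difference was -0.86 ± 0.19 (SE), adjusted p = 0.045. The early 2C difference of 0.19 ± 0.13 (SE) did not pass alone. Cdc25a, the phosphatase that activates cyclin-dependent kinases, measured 202, 161 and 156 CPM and 264, 269 and 249 CPM at early 2C, and 213, 142 and 234 CPM and 88, 58.4 and 146 CPM at 4C. The 4C groups overlapped through LINE1 ASO replicate 3 and RC replicate 2, and the double difference of -1.60 lay close to the threshold (adjusted p = 0.0498, edgeR). At 4C alone 19 of the 61 were called lower and 1 higher, against 3.9% and 6.97% of all genes, and the list's median was -0.01 at early 2C and -0.39 at 4C. The median double difference was -0.40 and stayed between -0.57 and -0.27 without any 1 library. Without 4C LINE1 ASO replicate 3, 1 gene passed higher and 14 lower, against 4.69% and 3.24% of all genes. Cenpe and Racgap1, with double differences of -0.96 ± 0.22 (SE), adjusted p = 0.0506, and -0.97 ± 0.23 (SE), adjusted p = 0.0542, came nearest among those that missed the threshold. Among 56 DNA replication and nucleotide synthesis genes 1 passed, Rrm2, the small subunit of ribonucleotide reductase, with means of 69.1 ± 4.31, 79.1 ± 7.48, 263 ± 38.6 and 138 ± 35.5 CPM (SD, n = 3) and a double difference of -1.12 ± 0.25 (SE), adjusted p = 0.0475. In that list 11 genes passed lower without 4C LINE1 ASO replicate 3, against 3.24% of all genes.

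**Figure D4:**
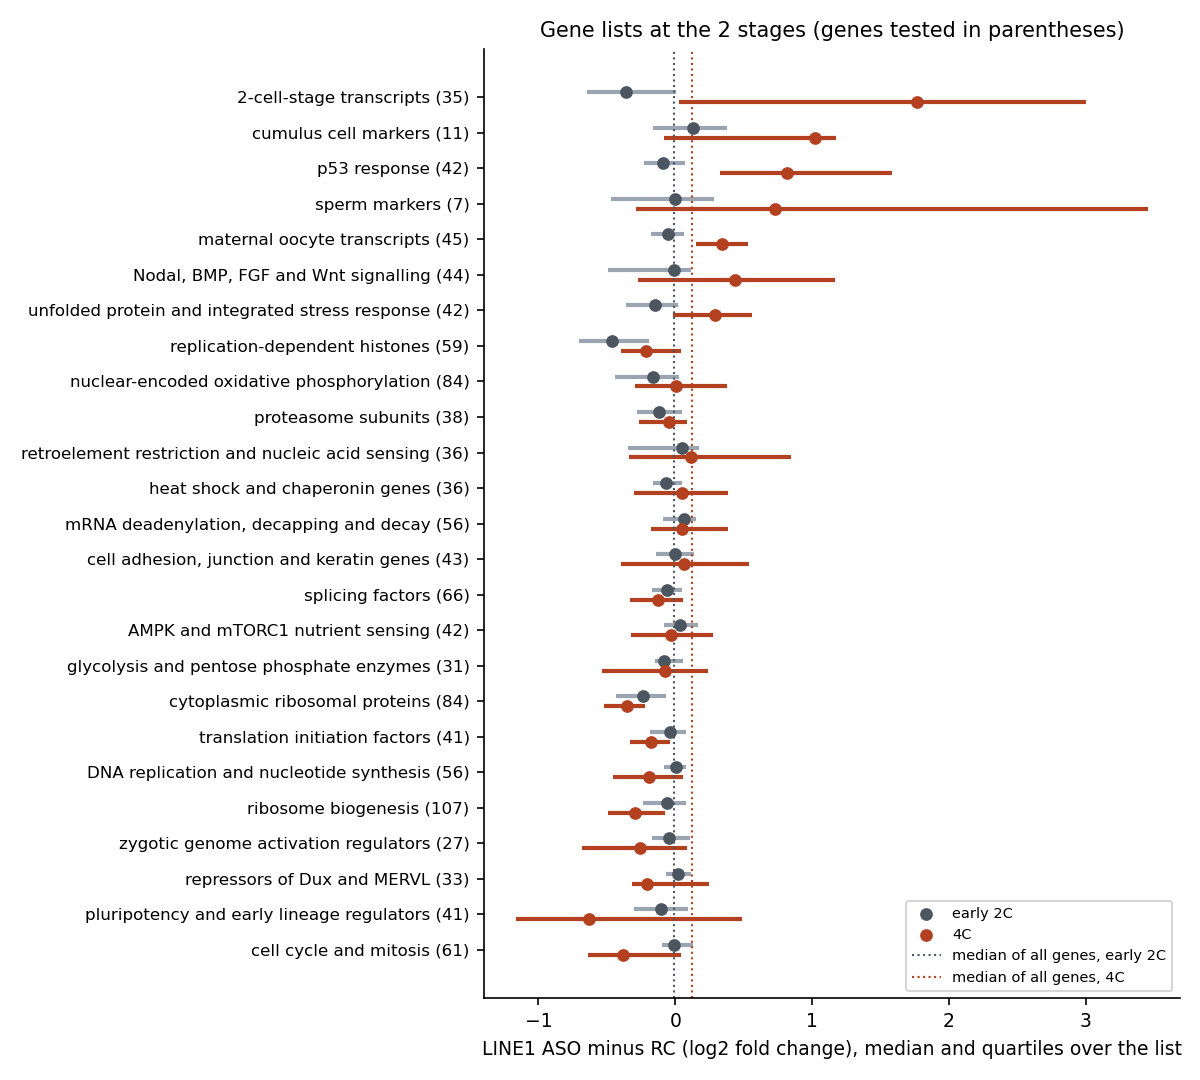
Median (point) and quartiles (line) of the fitted log2 difference, LINE1 ASO minus RC, over the tested genes of each of 25 lists (blood markers, with 2 tested genes, are not drawn) at early 2C (grey) and 4C (red), with the median of all genes as dotted lines. The 4C medians of the 2-cell-stage and p53 lists lie at 1.77 and 0.81, those of the cumulus and sperm marker lists at 1.02 and 0.73, and those of the pluripotency and cell cycle lists at -0.63 and -0.39, while the early 2C medians lie between -0.46 and 0.13.

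Of 27 tested genes of a list compiled for regulators of zygotic genome activation, Zfp57 and Tfap2c passed, in opposite directions, and the list's median was -0.26. Zfp57 is also in the list for repressors of Dux and MERVL. Of all genes tested 1.12% passed the interaction. Among 31 glycolysis and pentose phosphate enzymes 1 passed, Ldhb, with a median of -0.02. Among 107 ribosome biogenesis genes none passed the interaction, and the median double difference was -0.24. An unadjusted p under 0.05 was reached by 25, against 17.5% of all genes. At 4C alone 17 were called lower and 1 higher, against 3.9% and 6.97% of all genes. In that list 3 genes passed higher and 15 lower without 4C LINE1 ASO replicate 3, against 4.69% and 3.24% of all genes. With TMM referred to a 4C library 3 passed lower. Ncl, the nucleolar protein nucleolin, had means of 899.8 ± 22.6, 909 ± 38.2, 3101 ± 451 and 2550.0 ± 209.5 CPM (SD, n = 3), and a double difference of -0.30 ± 0.18 (SE), adjusted p = 0.409. Rn45s, the ribosomal RNA precursor, had a double difference of -0.23 ± 0.40 (SE), adjusted p = 0.818, and Trim28, the corepressor of KRAB zinc finger proteins, one of -0.44 ± 0.25 (SE), adjusted p = 0.374. Among 42 genes of the unfolded protein and integrated stress response 1 passed, Manf, a secreted protein of the endoplasmic reticulum, with 4C means of 53.3 CPM with RC and 90 CPM with LINE1 ASO, early 2C means of 37.1 and 27.2 CPM, and a double difference of 1.20 ± 0.25 (SE), adjusted p = 0.0434. Ahsa1, a cochaperone of Hsp90, was the 1 called among 36 heat shock and chaperonin genes (0.87). None passed among 59 replication-dependent histone genes, 84 cytoplasmic ribosomal protein genes, 84 nuclear-encoded oxidative phosphorylation genes, 66 splicing factors, 56 mRNA decay genes, 44 signalling genes of the Nodal, BMP, FGF and Wnt pathways, 43 adhesion genes and 38 proteasome subunits. An unadjusted p under 0.05 was reached by 5 of the 59 histone, 7 of the 84 ribosomal protein and 7 of the 84 oxidative phosphorylation genes. It was reached by 13 of the 66 splicing factors, 11 of the 56 mRNA decay genes and 14 of the 44 signalling genes. Among adhesion genes 12 of 43 reached it, and among proteasome subunits 5 of 38, against 17.5% of all genes. Without 4C LINE1 ASO replicate 3 genes passed in each of these lists: 3 splicing factors higher and 5 lower, 4 mRNA decay genes higher and 5 lower, and 5 signalling genes higher and 3 lower. In the same fit 3 oxidative phosphorylation genes, 2 histone genes and 2 adhesion genes passed higher, and 2 ribosomal protein genes and 1 proteasome gene lower. Of all genes 4.69% passed higher and 3.24% lower there. In that fit the calls were 3 higher and 5 lower for genome activation regulators, 4 and 2 for repressors of Dux and MERVL, 1 and 3 for glycolysis, and 4 and 1 for the unfolded protein and the heat shock lists alike. They were 0 and 6 for translation initiation, 3 and 2 for nutrient sensing, and 3 and 1 for retroelement restriction. Histones and ribosomal proteins are multicopy families whose reads may be split.

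For 1551 of the 1714 genes called at 4C the interaction did not pass, which does not show that the stages were alike. Dcp1a, a cofactor of mRNA decapping, had the same direction at both. It measured 655, 785 and 623 CPM and 1630.0, 1694 and 1243 CPM at early 2C with RC and LINE1 ASO, and 73, 71 and 76.9 CPM and 275, 228 and 102 CPM at 4C. The LINE1 ASO libraries were above RC at both stages, without overlap. The early 2C difference was 1.15 ± 0.26 (SE), adjusted p = 0.266, the 4C difference 1.45 ± 0.26 (SE), adjusted p = 0.00422, and the double difference 0.31 ± 0.36 (SE), adjusted p = 0.702 in edgeR's test. Zfp281, a zinc finger regulator of pluripotent cells, rose at 4C (means of 12.1 and 82.1 CPM), with early 2C means of 1.97 and 3.46 CPM. Its double difference of 1.97 ± 0.54 (SE), adjusted p = 0.0839 in edgeR's test, did not pass. The adjusted p was 0.0342 without 4C LINE1 ASO replicate 3 and reached 0.235 without another single library. Klf2, a Krüppel-like factor of the pluripotency network, fell at 4C (means of 197 and 87.9 CPM) and had a double difference of -0.72 ± 0.39 (SE), adjusted p = 0.356.

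Some genes called at 4C were hardly present at early 2C. Tdgf1, which encodes the Nodal coreceptor Cripto, had means of 0.0263 and 0.0618 CPM at early 2C, against 174, 96.2 and 109 CPM in 4C RC and 12.5, 13.8 and 33.8 CPM in 4C LINE1 ASO. It fell at 4C (-2.66 ± 0.38 (SE), adjusted p = 0.00147, edgeR), and the interaction had an adjusted p of 0.208 with all libraries. The adjusted p of the interaction was 0.036 without 4C LINE1 ASO replicate 3 and reached 0.439 without another single library (edgeR). Tlr13, a receptor for bacterial ribosomal RNA, was at 0 counts in all 4C RC libraries and at 10.2, 15.4 and 3.33 CPM in 4C LINE1 ASO, at least 221-fold higher. At early 2C the ratio of LINE1 ASO to RC was 13.9 (95% counting interval 2.2 to 581), nearly all from 1 library, and the adjusted p of the interaction was 0.359. The interaction of Tlr13 had an adjusted p of 0.26 without 4C LINE1 ASO replicate 3.

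The number of called genes depended on single libraries. It ranged from 19 to 48 without 1 early 2C library, 4C RC replicate 1, or 4C LINE1 ASO replicate 1 or 2. It was 181 without 4C RC replicate 2 and 358 without 4C RC replicate 3. It reached 1297 (7.93%: 767 higher, 4.69%, and 530 lower, 3.24%) without 4C LINE1 ASO replicate 3, and all 176 genes were among them, the named ones with adjusted p-values of up to 0.023 (Cbln1). In each of these 12 fits all 176 genes kept the sign of their double difference. In all 12 fits 15 genes were called, among them Apobec3, Dab2, Fam187b, Gm11818, Haus6, Lypd3, Maml1, Nacad, Nup35, Pabpc1, Prkab1, Rab38, Selp and Ss18. Nup35, a nucleoporin, Ss18, a chromatin remodelling subunit, and Dab2, an endocytic adaptor, had double differences of -1.35, -1.47 and -1.38. The named genes outside these 15 were called in 1 to 7 of the 12 fits where they were called with all libraries.

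**Figure D5:**
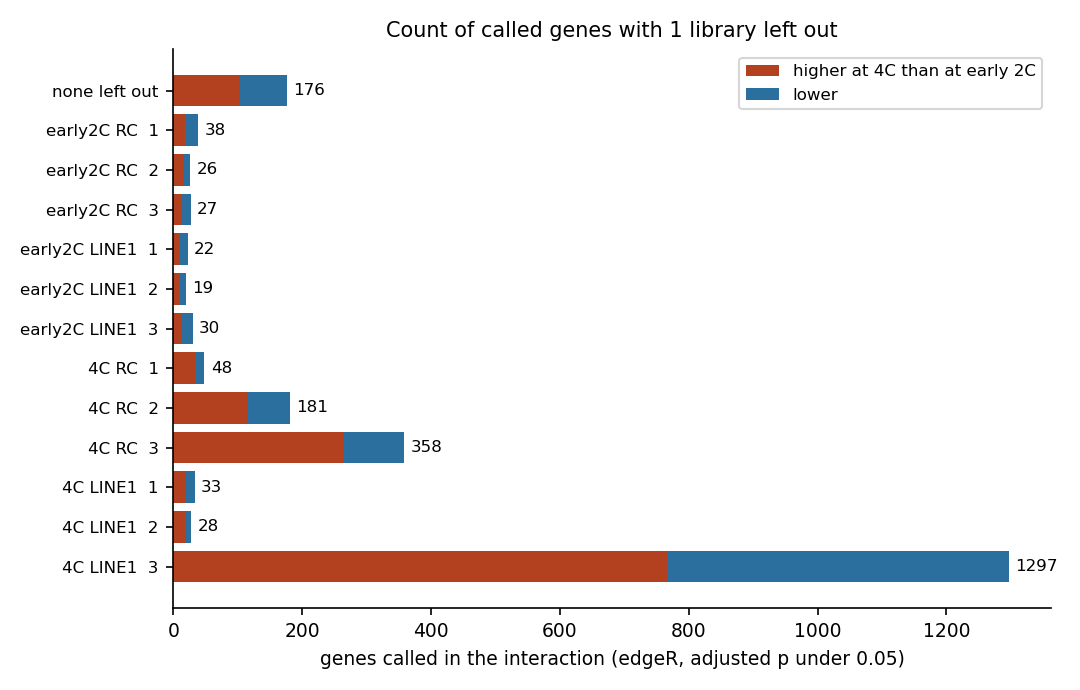
Number of genes called in the interaction (x axis, edgeR, adjusted p under 0.05) with all 12 libraries and with each library left out in turn (y axis), split into higher (red) and lower (blue) differences at 4C. The bar without 4C LINE1 ASO replicate 3 reaches 1297, against 176 with all libraries and 19 to 358 without any other.

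The balance of directions depended on the scaling between stages, which had no spike-in to fix it. With the scaling used here 102 genes were higher and 74 lower. With edgeR's TMM factors referred to a 4C library in place of an early 2C one the split was 59 to 123, with DESeq2's size factors 80 to 109, and with library totals 224 to 53. The median double difference of all genes moved with it, from 0.19 to 0.02, 0.10 and 0.33. The called genes kept their sign under each, and directions are relative to that median.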

How the data were processed

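RNA from mouse embryos of 4 groups of 3 libraries was extracted with PicoPure and sequenced as 50-nucleotide single-end reads on 2 lanes from 500 pg with a SMARTer stranded total RNA pico v2 kit, per the labels' protocols. The authors deposited raw counts per gene in 1 table for each stage. The submitters' processing notes list the mm9 build and, without saying for which step, TopHat2 2.0.9, Trim Galore 0.4.0, DESeq2 1.12.3 and R 3.3.0. The names of the deposited sheets point to featureCounts as the counting tool; no source used here states its version, its strand setting or the annotation. Totals of 19160716 to 51854939 counts per library set the precision, and counting intervals cover counting error only. All columns were used.

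The tables were joined by symbol, filtered with filterByExpr (minimum count 10), scaled by TMM, and fitted in edgeR 4.0.16 (R 4.3.3, limma 3.58.1) with 1 mean per group by robust quasi-likelihood. Adjusted p-values are Benjamini-Hochberg over the 15760 genes, two-sided, called under 0.05; a standard error is the log2 fold change divided by the square root of F. Levels are TMM-scaled CPM unless said to be scaled to library totals. A fitted log2 value of a gene at 0 or 1 to 3 counts in a group depends on the prior count and is no bound. Floors are 3 counts over a group, and counting intervals are 95%.

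Named genes were the 8 largest per direction among called genes averaging 50 counts or more per library at both stages (in a group of each), the 3 largest per direction detected at 1 stage, up to 3 called members per list by smallest p, and 15 fixed genes; predicted genes were left out, and 1 gene that the rule names is not reported here. Other names were chosen after their values were seen. The comparison, the 26 lists and their members were chosen with earlier results of these data known. Alternatives were DESeq2 1.42.0, other scalings and filters, limma voom, no robust estimation, an effect-size threshold, a replicate block and leaving out each library. The procedure was tested on simulated data. Promoters are RefSeq's on GRCm38.p6, which differs from mm9; no coordinates of the deposited files were used.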

Additional observations from a re-analysis of the deposited data

Results flagged for a closer look

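The difference between stages was itself tested for each gene, and 176 genes passed. The named genes among them are listed here with their double difference on the log2 scale, without an explanation. Higher at 4C than at early 2C were Nacad (9.34), Zscan4f (7.79), Apobec3 (7.17), Asb15 (6.48), Dux (5.85), Sh3tc2 (4.14), Nlgn3 (3.49), Egfr (2.92), Mat1a (2.90), Lypd3 (2.82), Cbln1 (2.78), Sesn1 (2.52), Ppm1d (1.87), Psrc1 (1.76), Zfp57 (1.32), Cbx1 (1.27), Manf (1.20), Tex19.1 (1.10), Ldhb (0.99), Ahsa1 (0.87). Lower at 4C than at early 2C were Prc1 (-0.86), Rrm2 (-1.12), Tfap2c (-1.18), Pabpc1 (-1.23), Cdc25a (-1.60), Snhg1 (-1.83), Vat1 (-1.98), Wdr72 (-1.99), Acpp (-2.01), Esrrb (-2.12), Prkab1 (-2.27), Lrp2 (-2.43). The values of Nacad, Zscan4f, Apobec3 and Asb15 depend on the prior count, since a group held 0 to 3 counts. Groups of 3 libraries were not tested for a sample far from the others.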

How the results depend on the processing

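The stage by ASO count of 176 became 920 with DESeq2, 277 with library totals as the scaling, 317 with limma voom and a weight per stage, 9 with a threshold of 1 on the log2 fold change, and 19 to 1297 without 1 library. With limma voom 100 were higher and 217 lower. The early 2C count of 2 became 57 with DESeq2, 9 with no low-count filter, 46 with limma voom, 1 with the effect-size threshold, 5 with TMM referred to a 4C library, 50 with the stage fitted alone, and 0 to 5 without 1 library. The 4C count of 1714 became 2732 with DESeq2, 23 with the effect-size threshold, 645 with the stage fitted alone (274 higher and 371 lower), and 636 to 3004 without 1 library. Its split of 1099 higher and 615 lower became 476 and 727 with limma voom and 1620 and 457 with library totals. The reference library and the single-stage fits were chosen after seeing the data. Without 1 library, the genes with opposite signs numbered 13 to 766, those larger at 4C 15 to 1243 and those detected at both stages 19 to 1266. Zfp352 reversed to -0.24 (adjusted p = 0.925) without 4C LINE1 ASO replicate 2, over a range of -0.24 to 1.80, and Dcp1a to -0.029 (adjusted p = 1) without early 2C LINE1 ASO replicate 3, over -0.029 to 0.62; neither had passed. The causes were not tested. Under every other scaling, filter and model the called genes that were present kept their sign.

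The replicate block gave 12 calls in the interaction and 1 at early 2C. Same-numbered libraries correlated at -0.03 to 0.10 in their deviations from the group means, none above 0.1, so the numbers were not taken to pair them. With 3 libraries per group, and 1 of the 4C LINE1 ASO libraries nearer to RC than the others, the counts of called genes are uncertain. Genes scarce at 1 stage give an imprecise double difference.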
